A study of Homo sapiens with 6 samples.

Results

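The cancer-testis antigen families were examined as 64 of the 23998 gene rows of a count table from human LNCaP prostate cancer cells. The rows were taken by symbol. They are the MAGEA, MAGEB and MAGEC genes, every symbol that begins with CTAG, GAGE, PAGE, XAGE, SSX or SPANX, the CT45 genes, and the single genes PRAME, BRDT, SYCP1, TEX14 and DDX53. Of the 64, 54 lie on the X chromosome in the RefSeq annotation of GRCh38. The symbol rule also takes in 5 CTAGE genes, a family that is not related to CTAG, and a pair of rows that match by name only, SSX2IP, which encodes a protein that binds SSX2, and SPANXA2-OT1, a long non-coding RNA.

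LNCaP is an androgen-responsive line that was established from a metastasis of prostate cancer. LNCaP-WT is the untreated line (genotype WT in the labels, 3 libraries), and LNCaP-ENZR is its enzalutamide-resistant derivative (3 libraries). Enzalutamide is an antiandrogen drug. The resistant cells had been kept for over 12 months in enzalutamide that was raised stepwise between 5 and 50 µM, in charcoal-stripped serum (10%), while the growth protocol of all samples names RPMI medium with 10% fetal bovine serum. It is not stated whether cells were harvested with enzalutamide or stripped serum still on them, nor whether the derivation was repeated, nor whether the libraries of a group were separate cultures. The p-values therefore reflect library-to-library spread alone, and that spread may be technical. Poly(A) RNA was sequenced as 150 bp read pairs, with 34505712 to 36610862 gene counts per library, so that 1 count is worth 0.0274 to 0.0287 CPM (counts scaled to a common library size).

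Cancer-testis antigens are proteins whose genes are active in germ cells and silent in most adult tissues, and which come back in many tumours. Most of the families named here sit on the X chromosome in clusters of recently duplicated copies. In somatic cells many of them are held silent by DNA methylation of their promoters, and agents that remove methylation can switch them on. Their peptides are presented to T cells, so that MAGEA, CTAG and PRAME proteins are used as immunotherapy targets. MAGE proteins of this group bind E3 ubiquitin ligases, and PRAME serves as a substrate receptor of a cullin ligase and as a repressor of retinoic acid receptor signalling.

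Several of these genes are so alike that sequence decides what a read can say about them. The coding sequences of MAGEA2 and MAGEA2B are identical over 942 bases, as are those of XAGE1A and XAGE1B over 243 bases. MAGEA3 and MAGEA6 are 98.1% identical, GAGE12G and GAGE13 98.9%, and CT45A1 and CT45A10 97.7%. In contrast, MAGEA3 and MAGEA1 are 81.0% identical. Each annotated transcript was divided into all its windows of 150 bases, the read length, and windows found in no other gene were counted (GENCODE release 29). Of 63 members with a transcript there, 7 had no window of their own, 26 had under 50% of their windows to themselves, and 25 shared none. How the authors' counting dealt with reads that match several genes is not given in the sources used here, and both reads of a pair can help to place a fragment where 1 window cannot.

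CTAG2 (also known as LAGE-1) is close to CTAG1B, the gene of NY-ESO-1, and 90.2% of its windows were its own. The stretch of coding bases 163 to 252 of each is shown because the largest difference among the members rests on telling these genes apart. Capitals mark the 14 of 90 bases that differ between them.
CTAG1B: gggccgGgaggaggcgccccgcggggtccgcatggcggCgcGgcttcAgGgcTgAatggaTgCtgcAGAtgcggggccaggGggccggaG
CTAG2: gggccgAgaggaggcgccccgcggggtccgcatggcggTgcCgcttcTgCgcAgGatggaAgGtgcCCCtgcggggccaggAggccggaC

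Promoter windows of 300 bases, from 250 before to 50 after a transcript start, were taken from RefSeq on GRCh38.p14. They were found for 55 of the 64 members and hold 45 distinct sequences. CTAG1A, CTAG1B, CTAG2, CT45A5, MAGEA1, MAGEA10, MAGEB17, TEX14 and SPANXA2-OT1 had no window there and were not searched. The windows of PAGE1, GAGE2A, XAGE1A and XAGE2 are shown as 1 gene of each type in these related families. PAGE1, GAGE2A and XAGE2 were called higher in LNCaP-ENZR, and XAGE1A did not pass the test. They share a run of 14 bases, in capitals, that begins 44, 15 and 89 bases before the start in PAGE1, GAGE2A and XAGE1A and 34 bases after it in XAGE2.
PAGE1 (chrX:49695935-49696234, minus strand): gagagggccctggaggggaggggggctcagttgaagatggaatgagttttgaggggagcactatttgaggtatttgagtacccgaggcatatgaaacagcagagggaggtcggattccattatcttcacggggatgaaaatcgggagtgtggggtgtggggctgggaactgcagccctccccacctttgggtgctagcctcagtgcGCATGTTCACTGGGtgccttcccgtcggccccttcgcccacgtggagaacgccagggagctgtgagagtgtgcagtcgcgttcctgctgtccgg
GAGE2A (chrX:49589246-49589545, plus strand): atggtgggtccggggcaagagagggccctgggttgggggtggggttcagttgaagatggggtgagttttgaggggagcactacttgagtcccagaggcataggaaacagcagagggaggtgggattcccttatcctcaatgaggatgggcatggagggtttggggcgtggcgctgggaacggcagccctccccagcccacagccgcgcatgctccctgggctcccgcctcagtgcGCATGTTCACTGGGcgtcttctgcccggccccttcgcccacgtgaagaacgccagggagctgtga
XAGE1A (chrX:52495627-52495926, plus strand): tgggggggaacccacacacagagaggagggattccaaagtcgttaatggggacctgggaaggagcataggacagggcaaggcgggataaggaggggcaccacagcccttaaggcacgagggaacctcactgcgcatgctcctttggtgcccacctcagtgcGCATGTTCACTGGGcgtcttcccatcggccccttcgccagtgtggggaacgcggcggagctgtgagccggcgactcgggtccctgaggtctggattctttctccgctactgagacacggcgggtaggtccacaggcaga
XAGE2 (chrX:52368771-52369070, plus strand): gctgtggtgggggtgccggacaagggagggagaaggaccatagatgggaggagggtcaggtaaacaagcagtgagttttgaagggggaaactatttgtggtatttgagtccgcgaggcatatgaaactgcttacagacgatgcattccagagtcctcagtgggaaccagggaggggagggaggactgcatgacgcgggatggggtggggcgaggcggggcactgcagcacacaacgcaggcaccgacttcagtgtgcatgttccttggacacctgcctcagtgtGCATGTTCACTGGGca

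The run GCATGTTCACTGGG, sought on both strands, occurs in 19 of 35116 windows of this length (0.0541%). Those windows belong to 15 genes, all of them members of GAGE, PAGE or XAGE, with 8 distinct window sequences. The MAGEA genes carry another shared run, shown for MAGEA3 and MAGEA12 because the first was lower in LNCaP-ENZR and the second did not pass the test. The windows of MAGEA3 and MAGEA6 are identical, as are those of XAGE1A and XAGE1B.
MAGEA3 (chrX:152698544-152698843, plus strand): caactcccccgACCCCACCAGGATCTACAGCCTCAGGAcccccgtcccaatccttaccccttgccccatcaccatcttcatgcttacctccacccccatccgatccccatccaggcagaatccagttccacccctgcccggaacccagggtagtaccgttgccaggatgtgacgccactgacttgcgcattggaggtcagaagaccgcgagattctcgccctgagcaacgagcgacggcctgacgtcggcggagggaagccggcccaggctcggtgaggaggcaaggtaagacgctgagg
MAGEA12 (chrX:152733507-152733806, plus strand): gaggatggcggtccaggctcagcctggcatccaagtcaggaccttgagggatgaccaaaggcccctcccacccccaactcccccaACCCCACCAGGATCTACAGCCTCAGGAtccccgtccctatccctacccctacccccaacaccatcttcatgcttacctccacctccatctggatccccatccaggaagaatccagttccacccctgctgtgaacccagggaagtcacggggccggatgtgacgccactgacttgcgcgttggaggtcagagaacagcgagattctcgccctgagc

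The 27 bases in capitals were found in 6 windows (0.0171%) of 5 genes, namely MAGEA2, MAGEA2B, MAGEA3, MAGEA6 and MAGEA12. MAGEA1 and MAGEA10 had no window to search. A shorter word, TGCGCA, was chosen after the sequences had been seen and overlaps the start of the 14-base run in PAGE1, GAGE2A and XAGE1A. It stood in 30 of 55 members' windows (54.5%), or in 20 of 45 distinct sequences (44.4%), against 8.24% of all windows. The number of CpG dinucleotides was not unusual, with a median of 13 per member window (3 to 32) and 14 over all windows. These matches describe sequence only.

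Of the 64 members, 29 passed the filter on low counts (about 10 counts in at least 3 libraries) and were tested, and 35 did not pass it. In edgeR's quasi-likelihood test with Benjamini-Hochberg adjustment over 15422 genes, 9 members were higher in LNCaP-ENZR, 5 were lower and 15 did not pass an adjusted p of 0.05. Over all tested genes 34.4% were called higher and 34.8% lower. The members' median log2 fold change was 0.24, also with the gene at 0 counts in one group set to its lower bound, against -0.01 over all tested genes. Libraries of the groups did not overlap for 16 of the 29, against 72.2% of all tested genes. Without the CTAGE genes and the rows that match by name only, 24 members were tested, with 9 higher, 4 lower and 11 not passing. For 7 tested members the lower group alone would have failed the filter, and 3 of these are among the 9 higher and 1, BRDT, among the 5 lower, so the counts over tested members are a description. RNA was taken from whole cultures, in which fewer cells that express a gene cannot be told apart from less RNA per cell.

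**Figure D1:**
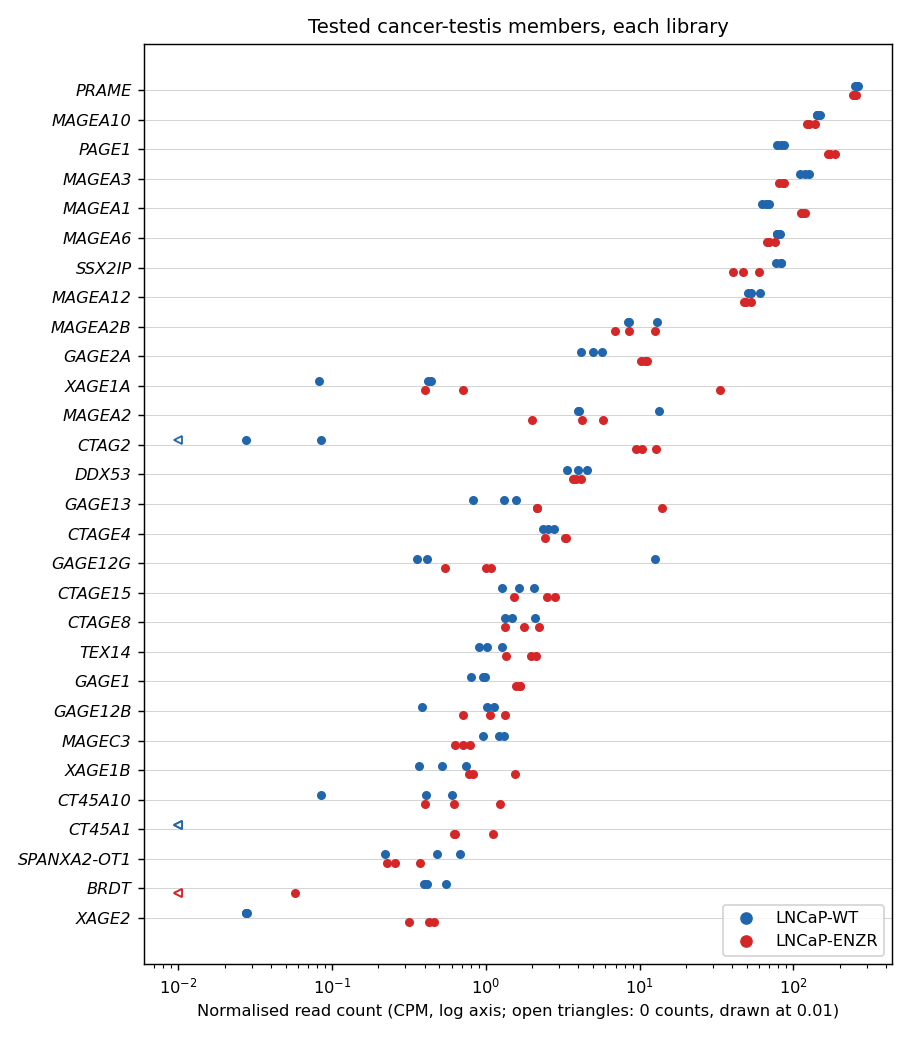
Normalised read count (CPM, log axis) of each tested member in each library, LNCaP-WT in blue and LNCaP-ENZR in red, ordered by mean level; open triangles stand for 0 counts. PRAME lies between 244.5 and 265.3 CPM in all 6 libraries, CTAG2 is at 3 counts or fewer in each LNCaP-WT library and between 9.43 and 12.7 CPM in LNCaP-ENZR, and XAGE1A, GAGE12G and GAGE13 each have 1 library far from the others.

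CTAG2, which encodes a tumour antigen related to NY-ESO-1, went from near absence to a moderate level. The LNCaP-WT libraries held 3, 1 and 0 counts and the LNCaP-ENZR libraries 362, 450 and 329. No LNCaP-ENZR library came near the LNCaP-WT range. The ratio of scaled counts was 294 (95% exact binomial interval 114 to 1080, counting error only; adjusted p = 1.3e-13, edgeR). Its size depends on the few LNCaP-WT counts, since the fitted log2 change was 8.07 with all libraries, 9.30 without LNCaP-WT replicate 1 and 7.52 without LNCaP-WT replicate 3 (adjusted p = 5.4e-15 and 8.9e-15, edgeR). Per length, the mean rose from 0.0388 ± 0.0449 to 10.6 ± 1.62 FPKM (fragments per kilobase of gene, scaled to the library total; SD, n = 3). CTAG1A and CTAG1B together held 0 counts in LNCaP-WT against 2 in LNCaP-ENZR. CTAG2 lies at chrX:154651977-154653579, with CTAG1B at chrX:154617609-154619282.

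CT45A1, from a cluster of X-linked testis genes, had 0 counts in all LNCaP-WT libraries and at 39, 22 and 22 counts in LNCaP-ENZR. Against a floor of 3 counts over the LNCaP-WT group, this was at least 28.5-fold higher (adjusted p = 2.5e-06, edgeR). Only 36.0% of its windows are its own. CT45A10 held 3, 15 and 22 counts in LNCaP-WT and 14, 22 and 43 in LNCaP-ENZR, and the groups overlapped (adjusted p = 0.11, edgeR). It was called higher without LNCaP-WT replicate 3 or without LNCaP-ENZR replicate 1 (adjusted p = 0.037 each, edgeR), and with the replicate number as a block (adjusted p = 0.047, edgeR). Summed over the family, which includes CT45A5 with 4 counts in all, CT45 was at 0.376 ± 0.266 CPM in LNCaP-WT and 1.57 ± 0.281 CPM in LNCaP-ENZR (SD, n = 3).

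PAGE1, an X-linked gene of the GAGE superfamily whose product has no well-defined function, had the highest level per length of all members. It stood at 121.9, 127.3 and 114.3 FPKM in LNCaP-WT and at 237.9, 257.0 and 234.4 FPKM in LNCaP-ENZR. The groups were far apart relative to their spread. In CPM the fold change was 2.13 (log2 1.09 ± 0.06 SE, adjusted p = 7.1e-12, edgeR). All of its windows are its own. Its relatives were close to silent, as PAGE2 held 2 counts in all, PAGE2B 11, 9 and 7 against 16, 3 and 4 counts, and PAGE4 5, 4 and 4 against 8, 10 and 4 counts. Those 3 genes did not pass the filter.

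The GAGE genes, which lie in a tandem array on the X chromosome and are recognised by cytotoxic T cells in melanoma, were represented by 12 rows, of which 5 were tested. GAGE2A stood at 5.72, 4.98 and 4.16 CPM in LNCaP-WT and at 10.2, 11.2 and 10.8 CPM in LNCaP-ENZR. Its groups did not overlap, and it was 2.17-fold higher (log2 1.11 ± 0.13 SE, adjusted p = 4.7e-07, edgeR). GAGE1 stood at 0.986, 0.958 and 0.799 CPM against 1.57, 1.67 and 1.66 CPM, which was 1.79-fold higher (log2 0.84 ± 0.28 SE, adjusted p = 0.012, edgeR). GAGE2A has 68.1% and GAGE1 90.3% of its windows to itself.

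Single libraries set the values of GAGE12G and GAGE13. GAGE12G, with no window of its own, held 446 counts in LNCaP-WT replicate 1 and 13 and 15 in the others, against 35, 38 and 19 counts in LNCaP-ENZR. Its log2 fold change was -2.34 ± 1.70 (SE, adjusted p = 0.29, edgeR) with all libraries and 1.18 (adjusted p = 0.041, edgeR) without LNCaP-WT replicate 1. GAGE13, with 36.0% of windows of its own, held 56, 48 and 30 counts in LNCaP-WT and 75, 495 and 75 in LNCaP-ENZR. Its groups did not overlap, and the log2 fold change was 2.30 ± 1.05 (SE, adjusted p = 0.12, edgeR), and 0.80 (adjusted p = 0.029, edgeR) without LNCaP-ENZR replicate 2. DESeq2 called it higher with all libraries (adjusted p = 0.025). GAGE12B stood at 1.13, 1.01 and 0.386 CPM against 1.06, 1.33 and 0.716 CPM (adjusted p = 0.51, edgeR). Of the 7 untested GAGE rows, GAGE12C held 2, 22 and 1 counts against 3, 2 and 12, and GAGE12J 2, 0 and 3 against 3, 9 and 9, a count ratio of 4.33 (95% exact binomial interval 1.59 to 14.7). The remaining untested rows (GAGE10, GAGE12D, GAGE12E, GAGE12F and GAGE12H) had 5 counts or fewer in each group. Summed over the family the libraries held 791, 342 and 245 counts in LNCaP-WT and 567, 1047 and 580 in LNCaP-ENZR, so that the family totals overlapped.

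XAGE2, a relative of GAGE on the X chromosome that is also expressed in placenta, held 1 count in each LNCaP-WT library and 16, 15 and 11 counts in LNCaP-ENZR. The count ratio was 14.4 (95% exact binomial interval 4.61 to 72.7; adjusted p = 1.9e-04, edgeR), from low counts in both groups, and all of its windows are its own. XAGE1A and XAGE1B (chrX:52495808-52500812 and chrX:52512077-52517068) have the same coding sequence. XAGE1A held 15, 16 and 3 counts in LNCaP-WT and 1159, 25 and 14 in LNCaP-ENZR, so that 1 library held nearly all of the signal. Its log2 fold change was 5.17 ± 2.45 (SE, adjusted p = 0.13, edgeR), and 0.82 without LNCaP-ENZR replicate 1 (adjusted p = 0.23, edgeR). XAGE1B stood at 0.366, 0.520 and 0.744 CPM against 0.773, 1.56 and 0.831 CPM. Its groups did not overlap, and it was 1.93-fold higher (log2 0.95 ± 0.40 SE, adjusted p = 0.043, edgeR). This call was lost with library totals alone (adjusted p = 0.064, edgeR), with DESeq2 (adjusted p = 0.077), with the replicate block (adjusted p = 0.055, edgeR), and without LNCaP-WT replicate 1 or 2 or LNCaP-ENZR replicate 2 (adjusted p = 0.15, 0.082 and 0.28, edgeR). Summed, the pair held 28, 35 and 30 counts in LNCaP-WT and 1186, 80 and 43 in LNCaP-ENZR. XAGE3 was not tested, with 0, 2 and 0 counts against 10, 2 and 2, a ratio of 7.21 (95% exact binomial interval 1.66 to 65.3), and XAGE5 went from 0 to 5 counts in all.

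**Figure D2:**
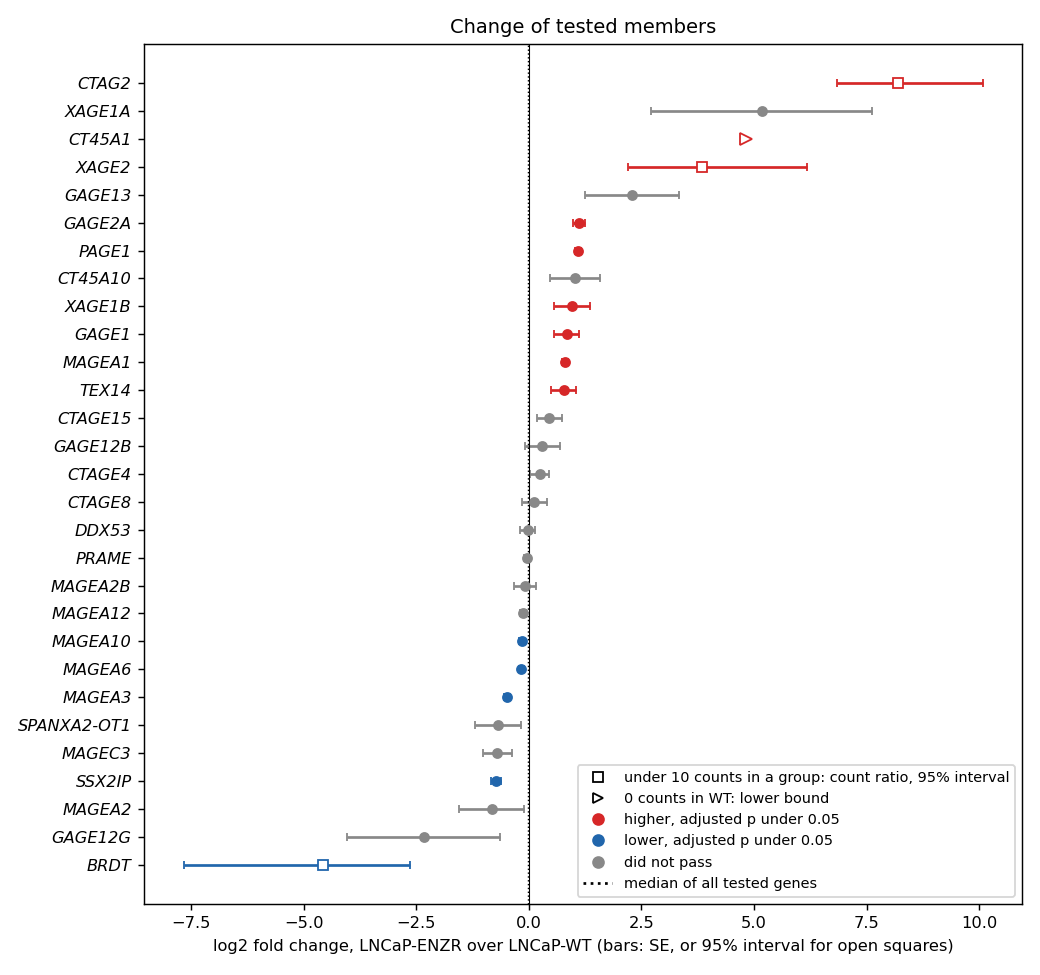
Log2 fold change of each tested member, LNCaP-ENZR over LNCaP-WT, from edgeR with bars of 1 SE; members with under 10 counts in a group are drawn as open squares at their count ratio with its 95% exact binomial interval, and CT45A1 as an open triangle at its lower bound. CTAG2, CT45A1 and XAGE2 are far to the right and BRDT far to the left, while the wide bars of XAGE1A, GAGE13, MAGEA2 and GAGE12G belong to genes that did not pass the test.

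The 7 tested MAGEA genes, which encode adaptors of ubiquitin ligases and the first tumour antigens known to be seen by T cells, did not move together. MAGEA1 was higher in LNCaP-ENZR, MAGEA3, MAGEA6 and MAGEA10 were lower, and MAGEA2, MAGEA2B and MAGEA12 did not pass the test. MAGEA1 (chrX:153179284-153183880) stood at 62.6, 66.0 and 69.2 CPM in LNCaP-WT and at 113.9, 119.7 and 111.6 CPM in LNCaP-ENZR. Its groups were well apart, with a fold of 1.75 (log2 0.80 ± 0.06 SE, adjusted p = 5.9e-10, edgeR). All windows of MAGEA1 are its own.

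MAGEA3, which with MAGEA6 directs TRIM28 to its targets, went from 110.7, 125.7 and 119.5 CPM to 86.1, 86.8 and 80.3 CPM. Its libraries did not overlap, and the log2 change was -0.49 ± 0.06 (SE, adjusted p = 8.1e-07, edgeR). MAGEA6 stood at 78.5, 81.7 and 78.3 CPM against 67.2, 75.6 and 69.9 CPM, a log2 change of -0.16 ± 0.06 (SE, adjusted p = 0.024, edgeR). Of their windows, 72.9% in MAGEA3 and 74.4% in MAGEA6 are their own. Summed, the pair went from 198.1 ± 9.10 to 155.3 ± 6.30 CPM (SD, n = 3). MAGEA10 stood at 142.6, 149.2 and 143.0 CPM against 123.7, 137.8 and 126.9 CPM, a log2 change of -0.16 ± 0.06 (SE, adjusted p = 0.016, edgeR). The calls of MAGEA6 and MAGEA10 rest on small changes. MAGEA6 lost its call without any of LNCaP-WT replicates 1, 2 and 3 or LNCaP-ENZR replicates 1 and 3 (adjusted p = 0.050 to 0.14, edgeR), and MAGEA10 without LNCaP-WT replicate 2 or LNCaP-ENZR replicate 1 or 3 (adjusted p = 0.062 to 0.12, edgeR). MAGEA3 kept its call with each library left out in turn.

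MAGEA12 stood at 50.8, 60.5 and 53.4 CPM in LNCaP-WT and at 47.9, 49.6 and 53.0 CPM in LNCaP-ENZR. The groups overlapped (log2 -0.13 ± 0.07 SE, adjusted p = 0.12, edgeR), although scaling by library totals alone gave a call (adjusted p = 0.014, edgeR). Limma on log2(FPKM + 0.1) gave a call too (adjusted p = 0.023). MAGEA2 held 477, 147 and 145 counts against 70, 205 and 148, with 12.0% of its windows its own. Its log2 change of -0.83 ± 0.73 (SE, adjusted p = 0.37, edgeR) rested on LNCaP-WT replicate 1, without which it was 0.0065. MAGEA2B stood at 8.45, 8.57 and 12.9 CPM against 6.96, 12.6 and 8.57 CPM (adjusted p = 0.75, edgeR). The identical pair MAGEA2 and MAGEA2B summed to 777, 460 and 613 counts in LNCaP-WT and 313, 649 and 447 in LNCaP-ENZR, which overlap. Over the whole family the level was 481.1 ± 14.3 CPM in LNCaP-WT and 463.5 ± 21.3 CPM in LNCaP-ENZR (SD, n = 3), so the family's sum differed by less than the SD of the LNCaP-ENZR libraries while its members went opposite ways. MAGEA4, MAGEA9B and MAGEA11 held 6 counts or fewer in each group.

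MAGEA3, MAGEA2B, MAGEA12, MAGEA2 and MAGEA6 lie in this order within one stretch of Xq28, interleaved with the CSAG genes, another cancer-testis family. CSAG3, next to MAGEA2, fell from 46.3 ± 5.93 to 21.1 ± 2.82 CPM (log2 -1.14 ± 0.11 SE, adjusted p = 7.5e-08, edgeR). MAGEA6-DT, a long non-coding RNA that starts beside MAGEA6 on the side away from CSAG3, fell from 6.28 ± 0.162 to 3.40 ± 0.822 CPM (log2 -0.88 ± 0.17 SE, adjusted p = 1.5e-04, edgeR). CSAG1, beside MAGEA12, stood at 34.4 ± 1.86 and 35.2 ± 1.71 CPM (log2 0.03 ± 0.07 SE, adjusted p = 0.70, edgeR). CSAG2 was at 57, 108 and 236 counts against 68, 135 and 118 (adjusted p = 0.67, edgeR). The CSAG genes are near copies of one another too, and how far they share reads was not measured. Neighbours in this stretch thus differed in size of change, from near 0 for CSAG1 to a 2.20-fold lower level for CSAG3.

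**Figure D3:**
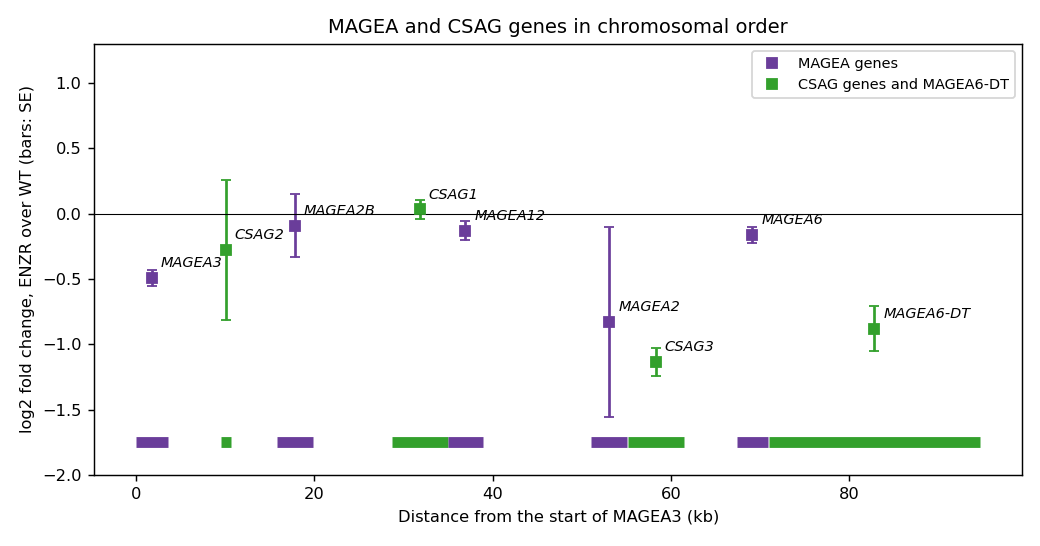
Log2 fold change, LNCaP-ENZR over LNCaP-WT, with bars of 1 SE, of the MAGEA genes (purple) and the CSAG genes with MAGEA6-DT (green) by distance from the start of MAGEA3 in kb; the bars along the bottom mark the extent of each gene. CSAG3 at -1.14, MAGEA6-DT at -0.88 and MAGEA3 at -0.49 are the called genes with the lowest values, and CSAG1 stays at 0.03.

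MAGEB and MAGEC were almost silent. The 3 MAGEB rows held 3 counts in LNCaP-WT against 6 in LNCaP-ENZR in all. MAGEC1 and MAGEC2, antigens that are frequent in myeloma and melanoma, held 2 counts or fewer in each group. MAGEC3 alone was tested, at 0.958, 1.31 and 1.21 CPM against 0.716, 0.792 and 0.630 CPM. The groups did not overlap, and its log2 change of -0.70 ± 0.33 (SE, adjusted p = 0.065, edgeR) missed the threshold. MAGEC3 passed it with library totals alone (adjusted p = 0.039, edgeR) and with limma on log2(FPKM + 0.1) (adjusted p = 0.04).

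PRAME was the member with the highest normalised count. It stood at 253.8, 265.3 and 258.7 CPM in LNCaP-WT and at 249.7, 255.3 and 244.5 CPM in LNCaP-ENZR. The groups overlapped, with a log2 change of -0.05 ± 0.05 (SE, adjusted p = 0.36, edgeR). With library totals alone in place of TMM factors it was called lower, at a log2 change of -0.14 (adjusted p = 0.017, edgeR), so its call depends on the scaling. Limma on log2(FPKM + 0.1) called PRAME lower too (adjusted p = 0.013). Per length it stood at 77.1 ± 1.66 and 70.0 ± 1.16 FPKM (SD, n = 3), second to PAGE1 in both groups.

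Per length, the order of the leading members in LNCaP-WT was PAGE1, PRAME, MAGEA10 (54.4 ± 1.29 FPKM), MAGEA3 (47.5 ± 2.99 FPKM), MAGEA6 (46.9 ± 1.06 FPKM), MAGEA1 (39.7 ± 2.07 FPKM) and MAGEA12 (28.8 ± 2.60 FPKM). MAGEA3 and MAGEA6 did not differ beyond their spread there. In LNCaP-ENZR, MAGEA1 (65.2 ± 2.08 FPKM) came next after PAGE1 and PRAME, and MAGEA10 followed at 45.8 ± 2.46, MAGEA6 at 39.4 ± 2.26, MAGEA3 at 31.8 ± 1.20 and MAGEA12 at 24.8 ± 1.38 FPKM (SD, n = 3 throughout). Per length, MAGEA1 thus stood below MAGEA10, MAGEA6 and MAGEA3 in LNCaP-WT and above all 3 in LNCaP-ENZR. In CPM it stayed below MAGEA10 in LNCaP-ENZR (115.1 ± 4.19 against 129.4 ± 7.37).

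Among the single genes, BRDT was the lower one. BRDT, the testis-specific BET protein that reads acetylated histones during sperm formation, held 14, 20 and 15 counts in LNCaP-WT and 0, 0 and 2 in LNCaP-ENZR. The count ratio was 0.0420 (95% exact binomial interval 0.00495 to 0.160; adjusted p = 1.4e-04, edgeR). Without LNCaP-ENZR replicate 3, which holds both remaining counts, the LNCaP-ENZR libraries were at 0 counts and the fitted log2 change went from -4.34 to -7.02 (adjusted p = 3.2e-05, edgeR). The BET genes BRD2 and BRD3 were far more abundant, and BRD2 was higher (log2 0.30 ± 0.05 SE, adjusted p = 4.9e-05) while BRD3 was lower (-0.44 ± 0.06 SE, adjusted p = 1.1e-06, both edgeR).

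TEX14, which forms the intercellular bridges of germ cells, stood at 1.27, 1.01 and 0.910 CPM against 1.35, 1.98 and 2.12 CPM. Its groups were next to each other without overlap, and it was 1.71-fold higher (log2 0.77 ± 0.28 SE, adjusted p = 0.022, edgeR). The call was lost without LNCaP-WT replicate 2 or 3 or LNCaP-ENZR replicate 2 or 3 (adjusted p = 0.050 to 0.080, edgeR) and with limma on log2(FPKM + 0.1) (adjusted p = 0.071). DDX53, an RNA helicase also called CAGE, held 161, 123 and 145 counts against 145, 130 and 134 (log2 -0.03 ± 0.17 SE, adjusted p = 0.89, edgeR). SYCP1, the transverse filament of the synaptonemal complex, held 1 count in all.

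SSX and SPANX stayed near 0. The 4 SSX rows, whose proteins act as transcriptional repressors and are fused to SS18 in synovial sarcoma, held 6 counts in LNCaP-WT against 8 in LNCaP-ENZR in all, and the 5 SPANX rows, genes of sperm nuclear proteins, held 3 and 4. At this depth a change in them was not detectable. In all, 30 of the 64 members stayed under 10 counts in both groups.

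The rows taken by name alone and the CTAGE genes add little. SSX2IP, a protein of cell junctions and centrosomes that is no member of the SSX family, stood at 83.7, 83.4 and 77.0 CPM against 59.8, 40.8 and 46.8 CPM (log2 -0.73 ± 0.12 SE, adjusted p = 1.8e-04, edgeR). SPANXA2-OT1 stood at 0.479, 0.684 and 0.221 CPM against 0.372, 0.226 and 0.258 CPM (adjusted p = 0.24, edgeR). CTAGE4 stood at 2.54, 2.79 and 2.37 CPM against 3.35, 3.28 and 2.44 CPM, which overlap (adjusted p = 0.31, edgeR). CTAGE8 stood at 2.08, 1.34 and 1.49 CPM against 2.23, 1.33 and 1.78 CPM, which overlap too (adjusted p = 0.71, edgeR). CTAGE15 stood at 2.06, 1.64 and 1.27 CPM against 2.81, 2.49 and 1.52 CPM, again with overlap (adjusted p = 0.14, edgeR), and was called higher without LNCaP-ENZR replicate 3 (adjusted p = 0.024, edgeR). CTAGE4 and CTAGE8 are 99.8% identical and each has under 10% of its windows to itself, and CTAGE6 and CTAGE9 held 9 counts or fewer in each group.

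Single-library excess was seen among members that share much sequence, though not in all of them. For each tested member the highest library was divided by the second highest of its group, in groups with at least 30 counts, and the larger ratio was kept. Of 11 members with under 50% of their windows to themselves, 4 had a ratio above 2 (XAGE1A 46.9, GAGE12G 30.4, GAGE13 6.52 and MAGEA2 3.34), and the median of the 11 was 1.87. CTAGE8, CTAGE15 and CTAGE4, with 5.58%, 6.77% and 9.02% of windows of their own, stayed at 1.40, 1.25 and 1.10. Of 17 members with more windows of their own, 0 were above 2, with a median of 1.11 and a highest ratio of 1.44. Over all tested genes, 1.94% of 15399 were above 2. The excess fell in LNCaP-WT replicate 1 for GAGE12G and MAGEA2, in LNCaP-ENZR replicate 1 for XAGE1A and in LNCaP-ENZR replicate 2 for GAGE13, so no library was behind all 4. This measure was chosen after the counts had been seen, and the part that read placement plays in it was not tested.

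**Figure D4:**
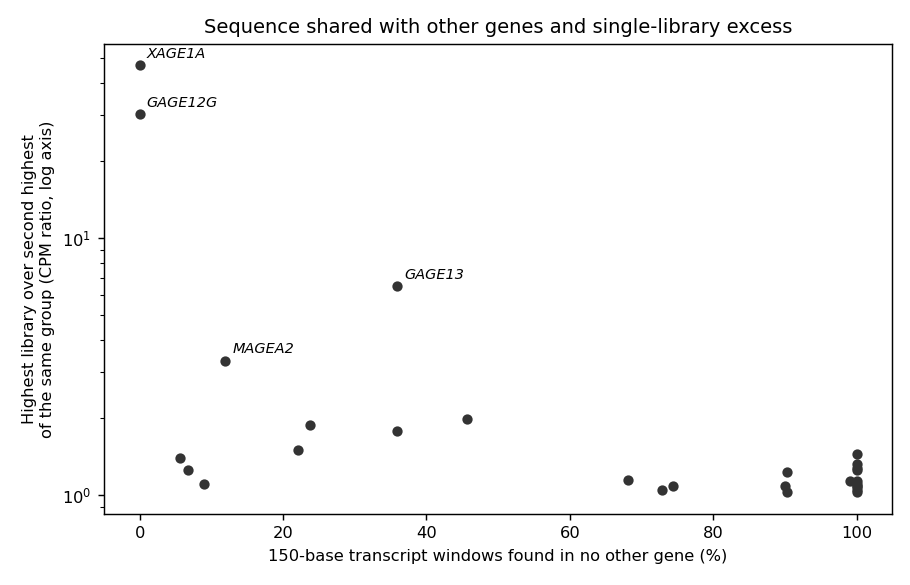
For 28 tested members, the ratio of the highest to the second highest library of the same group (log axis) against the share of 150-base transcript windows found in no other gene. The 4 named genes above a ratio of 2 all have under 50% of their windows to themselves, and the members with more stay at or below 1.44.

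Genes of the machinery around these antigens were counted from lists, each to be read against the 34.4% of all tested genes called higher and the 34.8% called lower. Of 13 partners of MAGE and PRAME proteins, 9 were higher and 4 lower (median log2 0.32, against -0.01 over all tested genes). They included NSMCE2 of the SMC5/6 complex (1.06 ± 0.09 SE, adjusted p = 6.3e-09) and the cullin subunit RBX1 (0.64 ± 0.07 SE, adjusted p = 1.0e-07, both edgeR). TRIM28, the ligase that MAGEA3 and MAGEA6 bind, went from 191.3 ± 6.34 to 223.9 ± 9.29 CPM (SD, n = 3; log2 0.23 ± 0.05 SE, adjusted p = 9.6e-04, edgeR). Of 8 tested ubiquitous MAGE genes, which are active outside the germline, 4 were higher, 1 lower and 3 did not pass (median log2 0.56). NDN, or necdin, had the largest change of the called genes (1.19 ± 0.09 SE, adjusted p = 4.9e-10), and MAGED2 was the lower one (-0.51 ± 0.06 SE, adjusted p = 1.2e-07, both edgeR).

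Among genes of DNA methylation and germline gene repression, 15 of 22 tested were higher, 1 was lower and 6 did not pass (median log2 0.25), against 34.4% higher and 34.8% lower over all tested genes. The maintenance methyltransferase DNMT1 stood at 107.6 ± 6.99 CPM in LNCaP-WT and 271.1 ± 11.9 CPM in LNCaP-ENZR (SD, n = 3; log2 1.33 ± 0.06 SE, adjusted p = 2.7e-13, edgeR). UHRF1, which brings DNMT1 to newly copied DNA, rose by 2.11 ± 0.08 on the log2 scale (SE, adjusted p = 3.1e-14) and the de novo enzyme DNMT3B by 1.27 ± 0.09 (SE, adjusted p = 4.2e-10, both edgeR). DNA methylation itself was not measured. All 12 tested proliferation genes were higher too (median log2 1.78), and their part in the levels of DNMT1 and UHRF1, which dividing cells use, was not tested.

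Genes on other cancer-testis and meiosis lists did not share one direction. Their counts stand against the same 34.4% higher and 34.8% lower over all tested genes. Of 25 tested genes listed as cancer-testis genes outside the families above, 5 were higher, 11 lower and 9 did not pass (median log2 -0.47). Not all genes on this list are restricted to testis. VCX3A and VCX, X-linked genes of male germ cells, were the most reduced of those called with a mean of at least 100 counts, at -3.46 ± 0.18 (SE, adjusted p = 3.6e-12) and -2.33 ± 0.22 (SE, adjusted p = 2.0e-08, both edgeR). PASD1, a regulator of the circadian clock, was at 73.4 ± 1.78 CPM in LNCaP-WT and 42.0 ± 2.96 CPM in LNCaP-ENZR (SD, n = 3; log2 -0.80 ± 0.07 SE, adjusted p = 2.7e-09, edgeR). ODF2, a protein of sperm tails and centrioles, was higher (0.97 ± 0.06 SE, adjusted p = 9.1e-11, edgeR). Below a mean of 100 counts, larger changes went both ways. TEX15 rose from 9, 2 and 6 counts to 70, 29 and 85 (adjusted p = 9.6e-06, edgeR). ELOVL4 rose from 0 counts in each LNCaP-WT library to 20, 17 and 21 (adjusted p = 9.5e-06, edgeR). CCDC83 fell from 122, 149 and 109 counts to 9, 10 and 7 (adjusted p = 1.3e-09, edgeR). Of 11 tested meiosis genes, 7 were higher, 2 lower and 2 did not pass (median log2 0.36). The higher ones included the synaptonemal complex gene SYCE2 (1.93 ± 0.11 SE, adjusted p = 6.1e-12, edgeR) and the meiotic cohesin STAG3 (1.07 ± 0.10 SE, adjusted p = 8.6e-09, edgeR). The 2 lower were SYCE3 (-0.30 ± 0.10 SE, adjusted p = 0.015, edgeR) and SYCP3 (-1.29 ± 0.51 SE, adjusted p = 0.032, edgeR). SYCP3 held 24 counts or fewer in any library. Cell-cycle genes that are also listed as cancer-testis antigens were higher in 9 of 10 cases (median log2 1.19), led by TTK (2.28 ± 0.12 SE, adjusted p = 9.9e-12, edgeR).

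Markers of other cells were summed beside these values, and their calls stand against the same 34.4% higher and 34.8% lower over all tested genes. The germ cell and Sertoli cell markers summed to 20.2 to 22.1 CPM in LNCaP-WT and 14.2 to 15.6 CPM in LNCaP-ENZR, with 0 of 4 tested higher and 2 lower. Most of the difference lay in SOX9, a Sertoli cell factor that prostate epithelium also expresses, which fell from 10.8 ± 1.40 to 4.45 ± 0.947 CPM (SD, n = 3; adjusted p = 5.0e-07, edgeR). SALL4 held 14, 18 and 29 counts in LNCaP-WT and 0 in each LNCaP-ENZR library, and DAZL, a defining germ cell gene, held at most 1 count in any library. Leukocyte markers summed to 0.634 to 1.16 CPM in LNCaP-WT and 0.509 to 0.830 CPM in LNCaP-ENZR. Of 12 LNCaP identity markers, 3 were higher, 7 lower and 2 did not pass (median log2 -0.52). Of 5 tested markers of the prostate lines PC-3 and DU145, 2 were higher (VIM and TGFBI), 2 lower (MET and EGFR) and 1 did not pass. The list of 9 summed to 184.3 to 202.6 CPM in LNCaP-WT and 160.9 to 177.2 CPM in LNCaP-ENZR. Most of that sum was EGFR, at 145.2 ± 10.2 CPM in LNCaP-WT and 118.6 ± 10.3 CPM in LNCaP-ENZR (SD, n = 3). AXL, CAV1, CD44 and ANXA1 were not tested and held 15 counts or fewer in any library.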

How the data were processed

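The deposited table of raw counts per gene holds 23998 symbols in 6 libraries, and the deposited FPKM table gives the authors' length-scaled values for the same genes, as its name says. Tools listed in the submitters' processing notes are fastp, HISAT2 and HTSeq, without versions, with build GRCh38. Neither annotation nor strand setting nor the handling of reads that match several genes is given in the sources used here. Counts were tested with edgeR 4.0.16 (R 4.3.3; robust quasi-likelihood F test, two-sided, TMM scaling, default filter) over 15422 genes with Benjamini-Hochberg adjustment, and each SE was derived from F. For groups under 10 counts, the ratio of scaled counts is given. FPKM serves only to compare levels between genes. Every tested member is named with its library values. Members under the filter are named by family, with library values from 10 counts in a group on, and list genes by call and size of change at a mean of at least 100 counts. TRIM28, PASD1, SALL4 and DAZL were named beyond this rule, and some list genes that it names are not reported here. Alternatives were DESeq2 1.42.0 (size factors and Wald test), library totals, 2 other filters, limma 3.58.1 on log2(FPKM + 0.1), a replicate block, and leaving out single libraries in turn. The script was tested on simulated data. Sequences come from RefSeq and GENCODE. The members and lists were chosen with earlier results of these data known.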

Additional observations from a re-analysis of the deposited data

How the results depend on the processing

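Against 9 members called higher and 5 lower, library totals alone and limma on log2(FPKM + 0.1) each gave 8 lower, and the stricter filter, which tests fewer genes, gave 5 higher. Over all tested genes the calls moved the same way, from 5308 higher and 5366 lower to 4643 and 6111 with library totals and 4555 and 6029 with limma. With each library left out in turn, the members called higher numbered 8 to 10 and those called lower 3 to 5 (3 without LNCaP-WT replicate 2, LNCaP-ENZR replicate 1 or LNCaP-ENZR replicate 3). Of 366 values of single members under 13 alternatives, 325 kept direction and side of the threshold, 19 lost the call, 12 gained it and 10 changed sign, in 16 members in all. The sign changes all came from leaving out 1 library, over which the log2 fold change ran from -2.89 to 1.18 for GAGE12G (positive without LNCaP-WT replicate 1), from -1.18 to 0.0065 for MAGEA2 (positive without the same library), from -0.35 to 0.14 for MAGEA2B (positive without LNCaP-WT replicate 3 or LNCaP-ENZR replicate 1), from -0.13 to 0.082 for DDX53, from -0.065 to 0.33 for CTAGE8 and from -0.045 to 0.57 for GAGE12B. The cause was not tested. Deviations of libraries with the same replicate number correlated at -0.02, 0.04 and 0.10, within the -0.20 to 0.15 of unlike numbers. With 3 libraries per group this check has little resolution, so whether the numbers pair the samples cannot be told. With the replicate block, 9 members were higher and 5 lower, but XAGE1B lost its call and CT45A10 gained one. Over all genes, 5316 were called higher and 5398 lower with it. At 1 count per 0.0274 to 0.0287 CPM, the 30 members under 10 counts in both groups are limited by depth.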

Other observations

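The PRAMEF genes, autosomal relatives of PRAME, were looked at after their values had been seen. Of 16 PRAMEF rows, 2 were tested, and both were lower in LNCaP-ENZR while PRAME itself did not pass the test. Over all tested genes, 34.8% were called lower. PRAMEF12 held 57, 64 and 81 counts in LNCaP-WT and 12, 11 and 8 in LNCaP-ENZR (log2 -2.65 ± 0.35 SE, adjusted p = 1.5e-06, edgeR). PRAMEF8 held 19, 18 and 20 counts against 6, 2 and 8 (log2 -1.77 ± 0.53 SE, adjusted p = 0.0066, edgeR). Summed over all 16 rows the libraries held 108, 137 and 144 counts in LNCaP-WT and 24, 18 and 19 in LNCaP-ENZR, with no overlap. These genes are close copies of one another, and how far they share reads was not measured.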
